A study of Mus musculus with 6 samples.

Results

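The elastic fibre and fibulin genes are a set of 10 mouse genes, chosen by symbol, that encode the elastic core of the extracellular matrix (Eln), its microfibrils (Fbn1, Fbn2, Mfap2 and Mfap5) and the fibulins that help to assemble it (Efemp1, Efemp2, Fbln5, Fbln1 and Fbln2). The set was taken up because Efemp2 and Fbln1 had small p-values between the same 2 groups that are described here, so the differences of this set are given as a description and not as support for a change. All 10 genes were among the 35673 genes listed, and all 10 passed the low-count filter, as did 18804 genes in all.

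RNA from mouse cornea was sequenced in 3 Cationorm libraries and 3 Control libraries. Cationorm is an eye drop made as a cationic oil-in-water emulsion. The mice were male C57BL/6J animals of 6 to 8 weeks. The labels describe a model of dry eye from contact lenses (CLDE), made with 0.1% benzalkonium chloride, a preservative, together with lens wear for 6 h per day and followed by drops of 5 µL for 14 days. All 6 libraries carry the condition tag CLDE and the treatment tag wild-type, so the labels do not settle whether the Control mice went through the model, and Control is the name in the titles. The labels do not state whether a library is 1 animal or a pool, and the spread between libraries may be technical.

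Elastic fibres have a core of cross-linked elastin laid down on microfibrils of fibrillin. Short fibulins bind tropoelastin and the enzymes of the lysyl oxidase family, which cross-link it. In the eye, fibrillin microfibrils also form the zonule, which holds the lens from the ciliary body, and microfibrils are found in the corneal stroma and sclera.

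The libraries held 32486043 to 39193311 counts, and their levels are given as CPM, counts scaled to a common library size. The floor that 3 counts set, for counting error only, lay between 0.0765 and 0.0923 CPM. No member was near it, since the lowest count was 80, for Fbn2 in Control 1. Corneal epithelium markers (Krt12, Krt5, Krt14, Pax6, Aldh3a1 and Tkt) summed to 56500 to 61100 CPM in Cationorm and 54500 to 58400 CPM in Control, so the labelled tissue carried its markers in every library. Transcripts of other eye tissues were present too. The 8 retina markers summed to 1820 to 5800 CPM in Cationorm and 4710 to 7020 CPM in Control. The 6 lens markers listed summed to 1490 to 5490 CPM in Cationorm and 70.5 to 2750 CPM in Control. The 7 keratocyte markers, of the stromal cells that make corneal matrix, summed to 2530 to 3780 CPM in Cationorm and 2960 to 3030 CPM in Control. These markers did not move together, and 2 of the 7 had a higher mean in Cationorm. Kera was lower in Cationorm without overlap of the groups, at a mean of 99.2 CPM against 176 CPM in Control. Ptgds was higher without overlap, at a mean of 704 CPM in Cationorm against 352 CPM in Control. In tissue samples of this kind, fewer cells of a type and less RNA per cell cannot be told apart.

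Together the 10 genes took 0.0779%, 0.0755% and 0.0662% of the counts in Cationorm 1 to 3, and 0.0585%, 0.0669% and 0.0650% in Control 1 to 3. The lowest Cationorm value was below the highest Control value. Efemp1, a short fibulin, made up 47.3% to 50.6% of the family's counts in Cationorm and 53.3% to 58.4% in Control. Fbln1, a long fibulin of basement membranes and elastic fibres, made up 24.9% to 27.8% in Cationorm and 18.4% to 21.7% in Control. The ranges of these shares did not overlap for either gene, and the share of one falls when the other's grows.

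Levels were set in order per kilobase of exon, with exon lengths from the GENCODE M21 annotation. Efemp1 led with 176 CPM per kilobase over the 6 libraries (range 162 to 189), followed by Fbln1 at 37.1 (25.6 to 50.8). Next came Fbln5 at 7.47 (6.70 to 10.3) and Mfap2 at 7.31 (6.40 to 7.94) CPM per kilobase, whose ranges overlapped. Efemp2 at 4.77 (3.68 to 5.85), Fbln2 at 3.65 (3.05 to 4.30), Fbn1 at 2.71 (1.61 to 3.53), Eln at 2.49 (1.73 to 3.53) and Mfap5 at 1.46 (0.941 to 2.13) formed a chain in which each range overlapped the next. Fbn2 was last at 0.257 (0.151 to 0.353) CPM per kilobase. The place of Eln depended on the length used: with the longest annotated transcript in place of all exons it stood at 5.24 CPM per kilobase, above Fbln2 at 4.86.

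**Figure D1:**
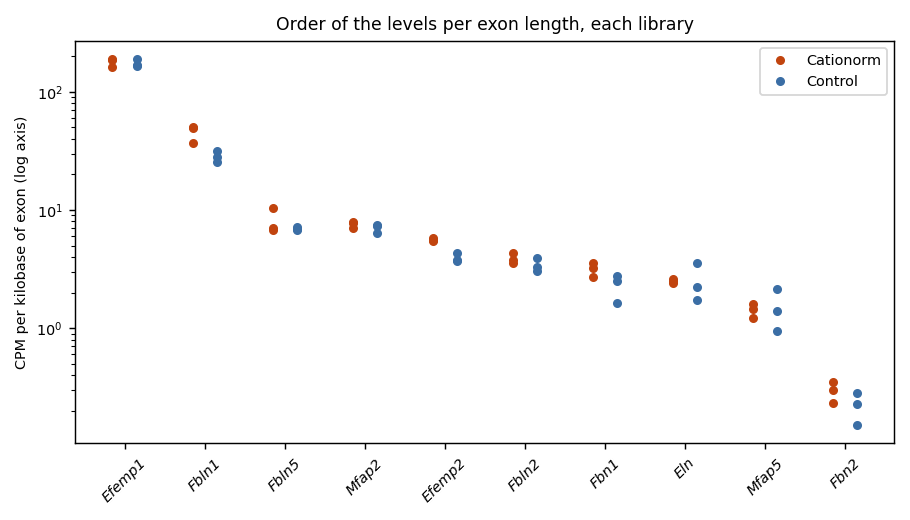
CPM per kilobase of exon (log axis) for the 10 genes, ordered by their mean over 6 libraries, with each Cationorm library in orange and each Control library in blue. Efemp1 and Fbln1 stand above the rest, and Fbn2 is lowest at a mean of 0.257 CPM per kilobase.

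Cationorm was compared with Control in a fit over all 18804 genes. The quasi-likelihood test of edgeR with Benjamini-Hochberg adjustment called 0 of the 10 members, against 0.0% of all genes. At an unadjusted p under 0.05 there were 2 members, Efemp2 and Fbln1, both higher in Cationorm, and 5.16% of all genes were higher at that level. DESeq2 called the same 2 members and 0.383% of the genes it gave an adjusted p, and limma-voom called 0 members and 0 genes. Because these p-values chose the family, nothing is read from those 2 calls. Of the 10 members, 8 had a positive log2 fold change and 2 a negative one, against 51.2% of all genes with a positive one. The median log2 fold change was 0.20 over the members and 0.0055 over all genes tested. The count of 8 and this median include Efemp2 and Fbln1, whose p-values chose the family. Both values are therefore a description only.

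**Figure D2:**
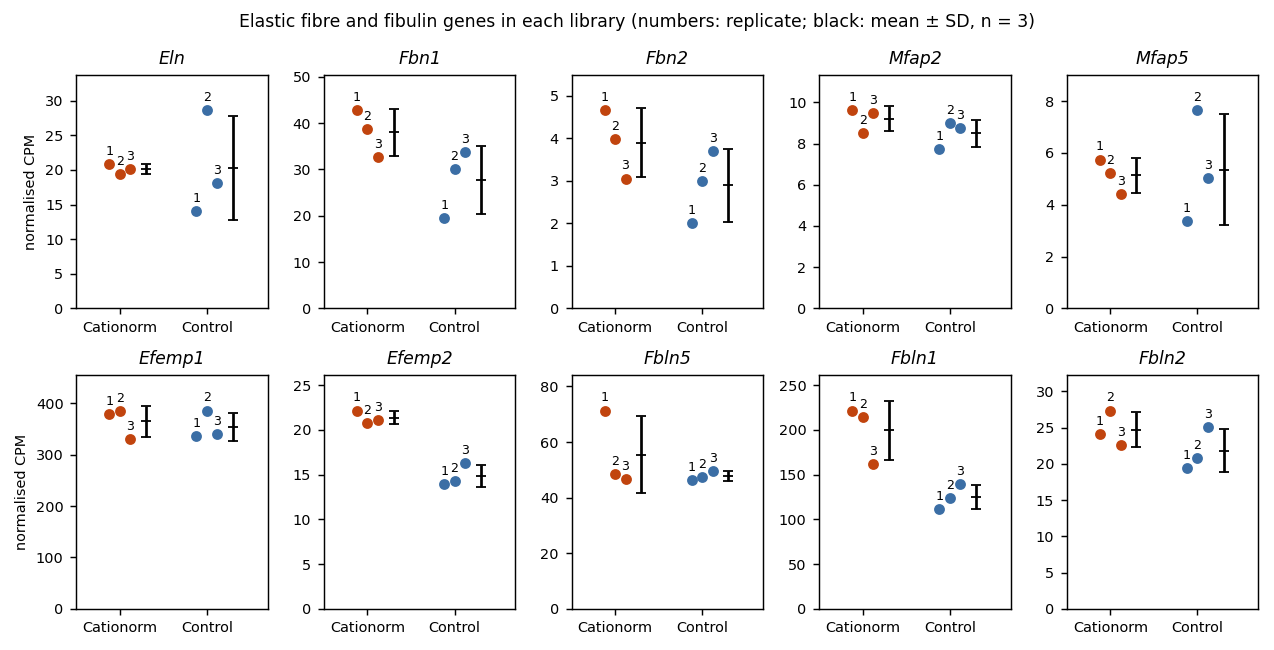
Normalised CPM of each of the 10 genes in the 3 Cationorm and 3 Control libraries, with the replicate number at each point and mean ± SD in black; each panel has its own axis from 0. The groups are apart for Efemp2 and Fbln1 and overlap for the other 8 genes.

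Elastin, the core protein, did not separate the groups. Eln stood at 20.9, 19.4 and 20.1 CPM in Cationorm 1 to 3, against 14.0, 28.6 and 18.1 CPM in Control 1 to 3. The Cationorm libraries were close together and lay inside the Control range, whose highest value, in Control 2, was 2.04 times the lowest, in Control 1. Its log2 fold change was -0.0055 ± 0.24 (SE; 95% interval -0.57 to 0.56), and without Control 2 it was 0.31.

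Among the microfibril genes, the fibrillins were higher in Cationorm on average with overlapping groups. Fbn1, the main scaffold of adult microfibrils, stood at 42.8, 38.7 and 32.7 CPM in Cationorm 1 to 3, against 19.6, 30.1 and 33.7 CPM in Control 1 to 3. Control 3 was above Cationorm 3, and Control 1 was the lowest. The log2 fold change was 0.45 ± 0.20 (edgeR adjusted p = 0.550), and it was 0.25 without Control 1 and 0.62 without Control 3. An antisense gene model, Gm9913, shares 20.1% of the exon bases of Fbn1 in the GRCm38 annotation and averaged 1.5 counts per library. Fbn2, a fibrillin best known from development, stood at 4.66, 3.98 and 3.06 CPM in Cationorm 1 to 3, against 2.001, 3.0 and 3.70 CPM in Control 1 to 3. That gave a log2 fold change of 0.43 ± 0.28 (edgeR adjusted p = 0.598). Its groups overlapped, and like Fbn1 it was highest in Cationorm 1 and lowest in Control 1.

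The fibrillins kept nearly the same proportion in every library. There were 9.17, 9.71 and 10.7 counts of Fbn1 per count of Fbn2 in Cationorm 1 to 3, and 9.79, 10.03 and 9.11 in Control 1 to 3. The highest of these ratios was 1.17 times the lowest, while Fbn1 itself varied 2.18-fold and Fbn2 2.33-fold in CPM. The 6 libraries stood in the same order for both genes. After each gene was centred on its own mean, the root mean square difference between them was 0.073 on the log2 scale, against 0.351 for Fbn1 around its mean. Of 11628 other genes with a mean of at least 5 CPM, 1 was as close to Fbn1 as Fbn2 was. This pair was looked at after its values were seen, and the points share library and depth.

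The microfibril-associated glycoproteins, which bind fibrillin, differed little on average. Mfap2 stood at 9.62, 8.52 and 9.47 CPM in Cationorm 1 to 3, against 7.75, 8.97 and 8.77 CPM in Control 1 to 3. The groups overlapped, and the gene varied only 1.24-fold over the 6 libraries. Its log2 fold change was 0.11 ± 0.13 (95% interval -0.18 to 0.41). Mfap5 stood at 5.74, 5.23 and 4.42 CPM in Cationorm 1 to 3, against 3.38, 7.64 and 5.04 CPM in Control 1 to 3. Control 2 was the highest library and Control 1 the lowest, as for Eln. The log2 fold change of Mfap5 was -0.061 ± 0.30, and without Control 2 it was 0.27.

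Mfap5 and Eln varied together over the libraries. There were 3.64, 3.71 and 4.56 counts of Eln per count of Mfap5 in Cationorm 1 to 3, and 4.16, 3.74 and 3.58 in Control 1 to 3. Their centred log2 levels differed by a root mean square of 0.109, and 3 of the 11628 other genes were as close to Eln. Eln did not follow Fbn1 in this way, with a difference of 0.331, and 6841 genes were closer to Eln than Fbn1 was. Lox, the lysyl oxidase that cross-links elastin and collagen, was also highest in Control 2, at 17.6 CPM, against 7.83 in Control 1 and 9.26 in Control 3. In Cationorm 1 to 3 Lox stood at 9.65, 5.12 and 7.77 CPM, with Cationorm 2 the lowest of the 6. Over all 6 libraries Lox did not follow Eln, with a root mean square difference of 0.378, and 9271 genes were at least as close. These pairs and Lox were picked after their values were seen.

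**Figure D3:**
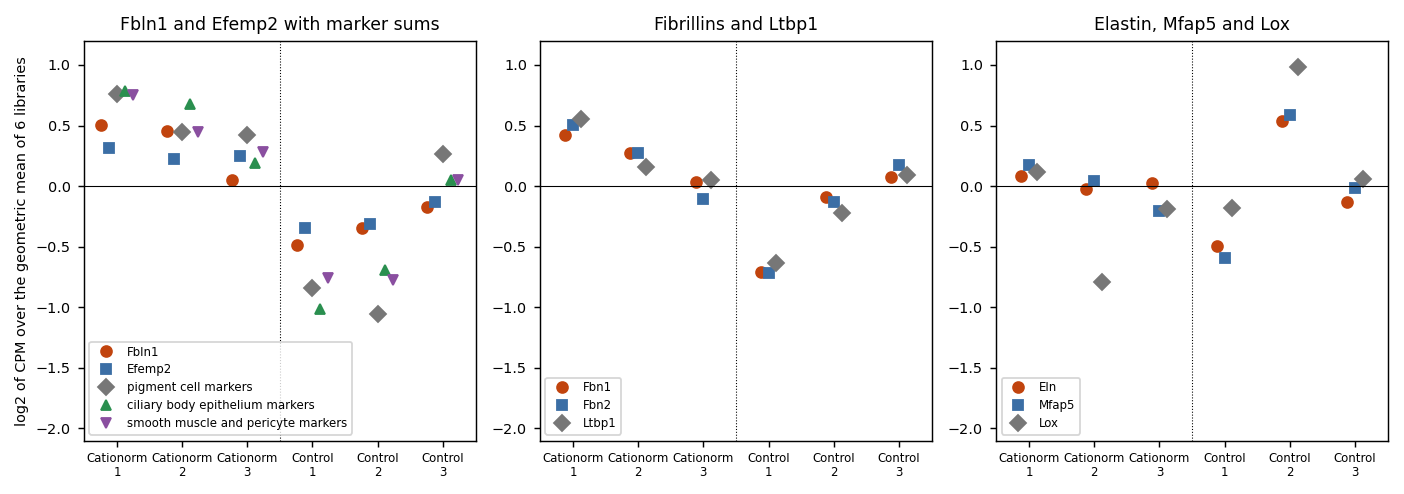
Log2 of CPM over the geometric mean of the 6 libraries, by library, for Fbln1 and Efemp2 with the summed markers of 3 tissues (left), for Fbn1, Fbn2 and Ltbp1 (middle), and for Eln, Mfap5 and Lox (right). Fbn1 and Fbn2 are lowest in Control 1, Eln and Mfap5 are highest in Control 2, and the marker sums of the left panel separate the groups without overlap, as Fbln1 and Efemp2 do.

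Of the short fibulins, Efemp2 separated the groups and its abundant relative Efemp1 did not. Efemp2 is needed for elastic fibre assembly in mice, where it brings lysyl oxidase to tropoelastin. It had 698, 783 and 792 counts in Cationorm 1 to 3, against 558, 496 and 571 counts in Control 1 to 3. Scaled to library size these were 22.2, 20.8 and 21.1 CPM in Cationorm 1 to 3, against 14.0, 14.3 and 16.3 CPM in Control 1 to 3. Every Cationorm library was above every Control library, with means of 21.3 ± 0.724 CPM in Cationorm and 14.8 ± 1.24 CPM in Control (SD, n = 3 each). The log2 fold change was 0.52 ± 0.096 (SE). In the GRCm38 annotation 173 exon bases of Efemp2 (4.57% of its exons) are shared with Mus81, a DNA repair nuclease gene on the opposite strand, and the strand setting of the counting is not given in the sources used here. Mus81 stood at 12.4, 15.9 and 16.1 CPM in Cationorm 1 to 3, against 16.1, 14.4 and 16.9 CPM in Control 1 to 3.

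Efemp1, a matrix fibulin that is abundant in several eye tissues, stood at 380, 385 and 330 CPM in Cationorm 1 to 3, against 335, 386 and 341 CPM in Control 1 to 3. The groups overlapped almost wholly, and the gene varied 1.17-fold over the 6 libraries, the least of the 10 members. This gave a log2 fold change of 0.043 ± 0.087 (95% interval -0.16 to 0.25). Within each library, Efemp2 had 5.83, 5.40 and 6.39 counts per 100 of Efemp1 in Cationorm 1 to 3, against 4.16, 3.71 and 4.77 in Control 1 to 3. This ratio does not depend on how libraries are scaled, and the groups did not overlap in it. Efemp2 was chosen by its p-value in this same comparison, and Efemp1 was nearly level. The lack of overlap is therefore a description and not support for a change.

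Fbln5, a fibulin that tethers tropoelastin to microfibrils and cells, stood at 71.3, 48.4 and 46.6 CPM in Cationorm 1 to 3, against 46.3, 47.5 and 49.6 CPM in Control 1 to 3. Cationorm 1 stood alone, and the other two Cationorm libraries lay among the Control libraries. The log2 fold change was 0.21 ± 0.16 (edgeR adjusted p = 0.631), and without Cationorm 1 it was -0.0080. Cationorm 1 was the highest library for 6 of the 10 members, and Control 1 was the lowest for 9. Cationorm 1 also had the highest keratocyte sum, at 3780 CPM, and Dcn, Ogn, Ptgds, Col1a1 and Col1a2 were each highest there. Lum was highest in Control 2. Kera, a corneal stroma proteoglycan, was lower in Cationorm 1, at 152 CPM, than in any Control library. Over the groups, 2 of the 7 keratocyte markers had a higher mean in Cationorm. Cationorm 1 also had the highest sum of sclera and conjunctiva fibroblast markers, at 480 CPM, of which Fmod gave 311 CPM. The sum was 373 to 452 CPM in the libraries between it and Control 1, which was lowest at 335 CPM. Fmod, Chad and Tnmd were highest in Cationorm 1, Pi16 and Clec3b in Cationorm 2, and Dpt and Col3a1 in Control 2. The part of these cell types in the levels of Fbln5 was not tested.

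Of the long fibulins, Fbln1 had the largest difference of the family. It had 6987, 8083 and 6093 counts in Cationorm 1 to 3, against 4479, 4276 and 4879 counts in Control 1 to 3. In CPM it stood at 222, 215 and 162 in Cationorm 1 to 3, against 112, 123.4 and 139 in Control 1 to 3. Every Cationorm library was above every Control library, and Cationorm 3 and Control 3 were the nearest to each other. The means were 199 ± 32.6 CPM in Cationorm and 125 ± 13.5 CPM in Control (SD, n = 3 each), and the log2 fold change was 0.68 ± 0.14 (SE). Without Cationorm 3 it was 0.81, and the edgeR fit then called Fbln1 (adjusted p = 0.0284) among 1.83% of all genes. No other fit with 1 library left out called Fbln1, with edgeR adjusted p from 0.156 to 0.862. Its p-value chose the family, so nothing is read from this call. Of the 350 genes called without Cationorm 3, 335 were lower and 15 higher in Cationorm. In the direction of Fbln1, 0.0782% of all genes were called. Retina markers summed to 5800 CPM in Cationorm 3, against 2330 and 1820 CPM in Cationorm 1 and 2. The Control sums were 4710 to 7020 CPM, and the part of retina in these calls was not tested. Set against Efemp1 in the same library, Fbln1 had 58.4, 55.7 and 49.1 counts per 100 in Cationorm 1 to 3, against 33.4, 31.97 and 40.8 in Control 1 to 3.

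Fbln2, a long fibulin of basement membranes and microfibrils, stood at 24.1, 27.4 and 22.7 CPM in Cationorm 1 to 3, against 19.4, 20.8 and 25.2 CPM in Control 1 to 3. Control 3 was above 2 of the Cationorm libraries. For Fbln2 the log2 fold change was 0.18 ± 0.12 (95% interval -0.11 to 0.47). Of the 8 members that did not choose the family, none had groups without overlap, a condition that 8.73% of all genes met with Cationorm higher and 6.09% with Cationorm lower.

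Of all the marker lists summed, those of 3 other tissues had sums that separated the groups, as Fbln1 and Efemp2 did. These 3 lists are described here because of those values. All 7 pigment cell markers had a higher mean in Cationorm, and their sum was 1160 to 1460 CPM in Cationorm and 415 to 1040 CPM in Control. All 6 ciliary body epithelium markers were likewise higher, at 91.2 to 138 CPM in sum in Cationorm and 39.7 to 83.1 CPM in Control. The 6 markers of smooth muscle and pericytes, all higher in mean, summed to 278 to 384 CPM in Cationorm and 133 to 237 CPM in Control. None of these 19 genes was under 1 CPM in all 6 libraries. Taken singly, the groups overlapped for Tyr, Tyrp1 and Slc45a2 of the pigment cell list and for Col9a3 of the ciliary body list. They also overlapped for Rgs5 and Tagln of the smooth muscle and pericyte list. Tagln was low as well. It stood at 0.889, 0.717 and 1.04 CPM in Cationorm 1 to 3, against 0.475, 0.317 and 0.797 CPM in Control 1 to 3. Fbln1 and the ciliary body sum put the 6 libraries in the same order, from Cationorm 1, 2 and 3 to Control 3, 2 and 1. Efemp2 did not share the order of any of the 3 sums, since Cationorm 3 stood above Cationorm 2 for it. This match was picked after the values were seen. Every marker was also higher in mean in the lists of vascular endothelium (6), corneal endothelium (3), lens (6) and skeletal muscle (6). The sums of those lists overlapped between the groups. Of the 8 retina markers 0 were higher in mean, and the remaining lists were mixed. The part of any of these tissues in the levels of Fbln1 and Efemp2 was not tested.

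The regions before the starts of Efemp2 and Fbln1, the members whose groups were apart, are shown with that of Efemp1, the abundant relative whose groups overlapped. RefSeq promoters (build GRCm38.p6) were at hand for 7 of the 10 members, and for a gene with several starts the last one listed is given. Each sequence is the 250 bases before the start, on the gene's strand, 5′ to 3′. Capitals mark matches to any of 6 motifs on either strand: the GC box GGGCGG, the TATA box TATAAA, the CCAAT box CCAAT, the AP-1 site TGANTCA, the SMAD box CAGACA and the SMAD element GTCTAGAC.
Efemp2, chr19:5474485-5474734, plus strand: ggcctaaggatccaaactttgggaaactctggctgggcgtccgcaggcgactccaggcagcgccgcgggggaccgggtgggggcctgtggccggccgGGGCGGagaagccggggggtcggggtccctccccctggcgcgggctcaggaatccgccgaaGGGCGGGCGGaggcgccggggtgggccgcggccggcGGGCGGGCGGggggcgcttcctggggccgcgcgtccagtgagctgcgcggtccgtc
Fbln1, chr15:85205758-85206007, plus strand: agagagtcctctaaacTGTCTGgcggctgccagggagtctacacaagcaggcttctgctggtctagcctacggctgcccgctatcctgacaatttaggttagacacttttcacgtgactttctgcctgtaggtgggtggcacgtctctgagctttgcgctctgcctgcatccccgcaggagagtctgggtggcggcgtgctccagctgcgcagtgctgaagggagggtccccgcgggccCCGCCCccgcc
Efemp1, chr11:28852955-28853204, plus strand: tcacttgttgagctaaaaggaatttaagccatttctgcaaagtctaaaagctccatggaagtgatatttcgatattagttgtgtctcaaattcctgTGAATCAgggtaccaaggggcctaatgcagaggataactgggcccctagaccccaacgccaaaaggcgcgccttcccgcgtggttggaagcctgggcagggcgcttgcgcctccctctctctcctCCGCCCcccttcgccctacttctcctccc

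The Efemp2 window held 5 matches to the GC box, 4 of them in pairs that overlap by 2 bases, and a G+C content of 78.8%. The Fbln1 window held 1 GC box, 11 bases before the start on the opposite strand, and 1 SMAD box, with 62.4% G+C. The Efemp1 window held 1 GC box and 1 AP-1 site, with 53.6% G+C. The median over 32851 promoter windows of this length was 52.4% G+C. A GC box was found in 32.7% of those windows, a SMAD box in 17.1%, an AP-1 site in 6.75%, a CCAAT box in 33.8%, a TATA box in 12.4% and the SMAD element in 0.167%. The 3 printed windows shared the GC box and had no other motif of the 6 in common, but this depends on the start taken. The other Fbln1 start listed had 0 GC boxes and 46.4% G+C, and the first Efemp2 start listed had 2 GC boxes and 59.2% G+C. A match is a stretch of letters and not a measured binding site.

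Genes with patterns most like those of the Efemp2 and Fbln1 levels were named by distance over 6 libraries among 11628 genes with a mean of at least 5 CPM. For Efemp2 the closest was Clu, the secreted chaperone clusterin, with a root mean square difference of 0.0173 on the log2 scale, against 0.265 for Efemp2 around its own mean. Then came Tbx2, a T-box transcription factor, at 0.0361, and Prx, the myelin protein periaxin, at 0.0541. For Fbln1 they were Col23a1, a transmembrane collagen, at 0.0648, Fam107a at 0.0825 and Igfbp7, a secreted binding protein, at 0.0842, against 0.373 for Fbln1 around its own mean. Col23a1 stood at 56.6, 50.8 and 42.6 CPM in Cationorm 1 to 3, against 26.3, 30.3 and 36.7 CPM in Control 1 to 3. Efemp2 and Fbln1 themselves were 0.159 apart, and 49 other genes were as close to Fbln1. With so many genes and 6 libraries, close patterns are found for many genes, and no shared control is read from them.

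The partners of the elastic fibre were described from a list of 43 genes, of which 41 passed the low-count filter. The edgeR test called 0 of the 41, against 0.0% of all genes. At an unadjusted p under 0.05 there were 8 partners, all higher in Cationorm, against 5.16% of all genes in that direction. DESeq2 called 1 partner, Ltbp2, against 0.383% of the genes with an adjusted p, and limma-voom called 0. Of the 41 partners, 33 had a positive log2 fold change and 8 a negative one, against 51.2% of all genes with a positive one, a share that also stands behind the counts of each group of partners. The partners' median was 0.14, against 0.0055 over all genes. The groups did not overlap in 6 partners, all higher in Cationorm, against 8.73% of all genes.

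Cross-linking enzymes and their helpers had a positive log2 fold change in 6 of 7 genes, with a median of 0.31. Loxl1, the lysyl oxidase relative that maintains elastic fibres in mice, stood at 37.4, 30.7 and 33.8 CPM in Cationorm 1 to 3, against 23.4, 27.2 and 28.7 CPM in Control 1 to 3. Its groups did not overlap (log2 fold change 0.36 ± 0.11, edgeR adjusted p = 0.550). Bmp1, the protease that activates lysyl oxidase, was at 43.6 ± 2.19 CPM in Cationorm and 42.1 ± 0.496 CPM in Control (SD, n = 3 each). Lox was the 1 gene of this group with a negative value, -0.62 ± 0.35 (edgeR adjusted p = 0.568).

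Microfibril-associated genes had a positive log2 fold change in 15 of 16, with a median of 0.24. Ltbp4 and Ltbp3, latent TGF-beta binding proteins that are part of the microfibril, had the highest CPM of this group. Ltbp3 stood at 144, 142 and 124 CPM in Cationorm 1 to 3, against 104, 90.8 and 122.9 CPM in Control 1 to 3, and the nearest libraries of the groups, Cationorm 3 and Control 3, were almost level. Its log2 fold change was 0.37 ± 0.12 and that of Ltbp4 was 0.24 ± 0.15 (edgeR adjusted p = 0.550 and 0.594). Ltbp2, a microfibril protein of the ciliary zonule, had the largest value of all partners at 1.03 ± 0.26 (edgeR adjusted p = 0.550). It stood at 29.3, 24.9 and 16.6 CPM in Cationorm 1 to 3, against 10.2, 9.32 and 15.1 CPM in Control 1 to 3. Without Cationorm 3 the edgeR fit called it, with a log2 fold change of 1.23 (adjusted p = 0.0488). That fit called 1.83% of all genes, and 0.0782% of all genes as higher in Cationorm. No other fit with 1 library left out called Ltbp2. The 6 libraries stood in the same order for Ltbp2 as for the summed pigment cell markers and the summed smooth muscle and pericyte markers, and the part of those tissues in the level of Ltbp2 was not tested. Ltbp1 followed Fbn1 closely, with 0.858 to 1.04 counts of Fbn1 per count of Ltbp1 in every library. Ltbp2 and Ltbp1 were picked after their values were seen.

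**Figure D4:**
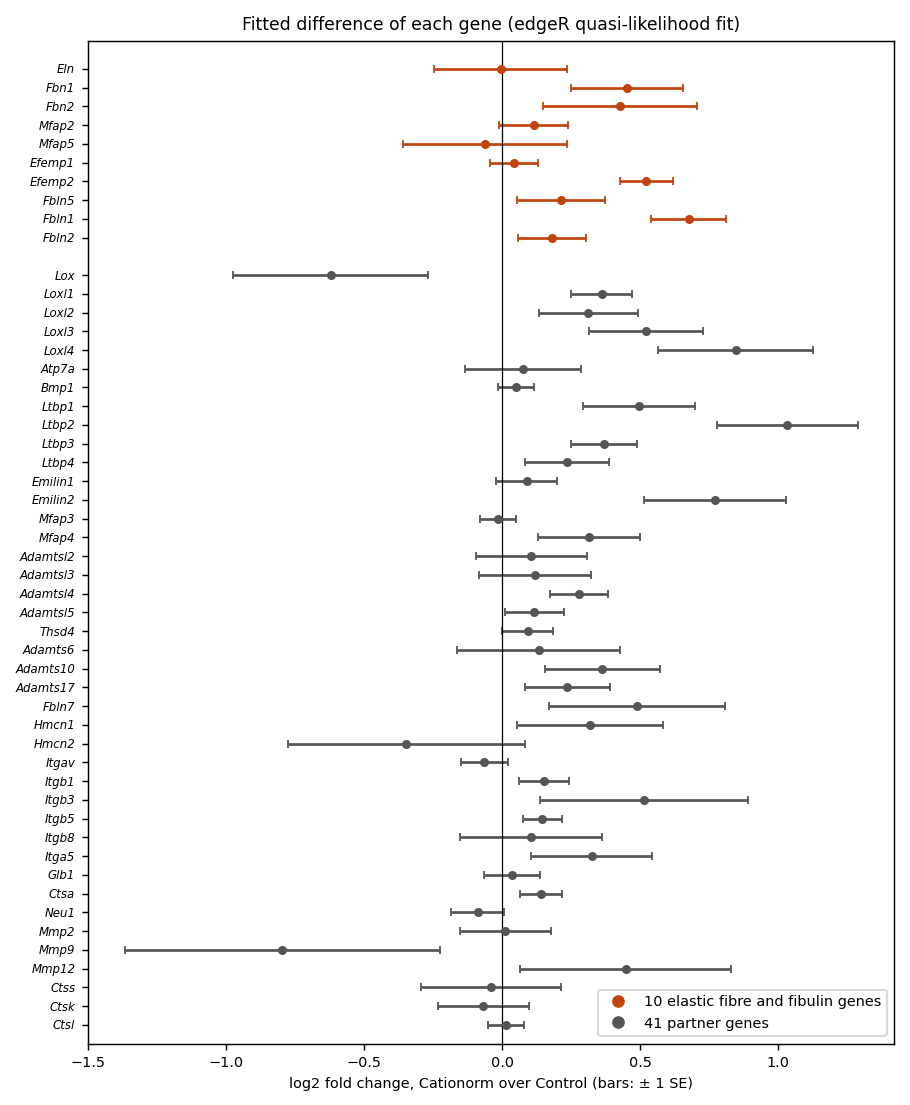
Log2 fold change of Cationorm over Control with ± 1 SE (edgeR quasi-likelihood fit) for the 10 members, in orange, and the 41 partners tested, in grey. Most points lie right of 0, with Ltbp2 farthest right at 1.03 and Mmp9 farthest left at -0.80, and 0 of them passed the adjusted threshold.

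The fibulin-related genes were low and varied widely. Fbln7 was at 4.98 ± 0.573 CPM in Cationorm and 3.55 ± 1.60 CPM in Control (SD, n = 3 each). The hemicentins, giant relatives of the fibulins, differed in sign: the log2 fold change was 0.32 ± 0.26 for Hmcn1 and -0.35 ± 0.43 for Hmcn2 (edgeR adjusted p = 0.663 and 0.777). Among 9 receptor genes, of integrins that bind matrix proteins and of the elastin-binding complex, 7 had a positive value, with a median of 0.14. The integrin subunit Itgb1 was at 193 ± 18.8 CPM in Cationorm and 174 ± 11.7 CPM in Control, and Itgb5 at 132 ± 7.15 CPM in Cationorm and 119 ± 6.38 CPM in Control (SD, n = 3 each).

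Of 8 elastin-degrading proteases, 6 passed the filter, 3 with a positive and 3 with a negative value, and their median was -0.014. Ctsl, a lysosomal cathepsin, was at 891 ± 60.0 CPM in Cationorm and 882 ± 3.76 CPM in Control, and the gelatinase Mmp2 at 35.6 ± 5.73 CPM in Cationorm and 35.3 ± 6.43 CPM in Control (SD, n = 3 each). Elane, the neutrophil elastase gene, had 0 counts in every library, and Mmp7 was at 0.11 CPM or less.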

How the data were processed

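RNA sequencing of mouse cornea was analysed from a table of raw counts per gene symbol deposited by the authors, with 1 column per library, per the file headers. Libraries were TruSeq preparations after mRNA enrichment, per the labels' protocols. The submitters' processing notes list DESeq2, GRCm39 and mm39 with no role. No aligner, counter or strand setting is named (not given in the sources used here). Columns were matched to samples by title. Total counts per sample ran from 32486043 to 39193311.

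Counts were scaled by TMM and filtered with filterByExpr, and Cationorm was tested against Control with edgeR 4.0.16 (glmQLFit, glmQLFTest; R 4.3.3), adjusted over 18804 genes at 0.05. CPM are TMM-normalised. SE come from the fold change and F statistic. DESeq2 1.42.0, limma-voom (3.58.1), other scalings and filters, a replicate block and leaving out each library were alternatives. The file gives no gene length, so CPM was the level, and CPM per kilobase with GENCODE M21 exon lengths was added after seeing the file. Distances used log2(CPM + 0.5). The fit was tested on simulated counts.

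The members and lists were chosen with earlier results of these data known. The named genes are the members, the 2 most abundant partners of each subgroup (all 3 fibulin-related genes) and the 3 genes nearest to Efemp2 and to Fbln1, with a mean of at least 5 CPM and no predicted gene models. Marker lists of the trabecular meshwork, vascular endothelium, corneal endothelium and skeletal muscle were summed too, and their groups overlapped. Protein sequences were not analysed here.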

Additional observations from a re-analysis of the deposited data

How the results depend on the processing

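The genes called over all genes numbered 0 under edgeR with every scaling and filter tried and under limma-voom, and 64 under DESeq2 (57 higher, 7 lower). With 1 library left out they ran from 0 to 350, with 350 without Cationorm 3, 8 without Control 3 and 1 without Control 2. Efemp2 kept a positive log2 fold change in all 13 alternatives (0.48 to 0.59), as did Fbln1 (0.59 to 0.81), Fbn1 (0.25 to 0.62), Fbn2 (0.22 to 0.64), Fbln2 and Mfap2. Eln changed sign with limma-voom (0.073), and Mfap5 did so too (0.023). Leaving out 1 library gave -0.21 to 0.31 for Eln, -0.31 to 0.27 for Mfap5, -0.014 to 0.11 for Efemp1 and -0.0080 to 0.32 for Fbln5. The cause was not tested. The members' median ran from 0.14 to 0.29 and the partners' from 0.11 to 0.25 with 1 library left out. With the replicate number as a block, 0 genes were called, Eln was at 0.056 and Mfap5 at 0.0018. Same-numbered libraries did not deviate together (correlations of -0.199, -0.343 and -0.209 between the deviations of replicates 1, 2 and 3 from their group means), so the number is not read as a pairing. The comparison of TPM with CPM was not run, since the file gives no gene length.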
